A study of Mus musculus with 16 samples.

Results

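The genes described here are those of cholesterol synthesis, its control by SREBP2 and cellular cholesterol traffic. A list of 29 mouse gene symbols was looked up by name in a table of 21671 genes, and 28 had a row. Of these, 26 reached 1 RPKM (reads per kilobase of gene and per mega-read of depth) in at least 2 libraries and could be tested. Hmgcs1, which makes HMG-CoA from acetoacetyl-CoA, was listed at 0 or near it, with 7 recovered reads over all libraries. Npc1l1, which takes up dietary cholesterol in the gut, never exceeded 0.243 RPKM. The remaining symbol, Sc4mol, had no row. It is an older name of Msmo1, which was measured.

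The cells were mouse embryonic fibroblasts, starved of serum and then held in low serum during treatment. All of them carry MycER, in which Myc is joined to part of the estrogen receptor and stays inactive until 4-hydroxytamoxifen (OHT, given at 400 nM) is added. YAP2S cells carry in addition a form of YAP, the partner of TEAD transcription factors, that lacks serines at which LATS kinases inhibit it. Y27632 (Y27, 50 µM) inhibits ROCK, the kinase that drives actomyosin contraction. The 8 groups were YAP2S OHT Y27, YAP2S OHT, MycER OHT Y27, MycER OHT, YAP2S Y27, YAP2S, MycER Y27 and MycER, with 2 libraries in each. Groups are called by their labels, and MycER alone means MycER cells with neither compound. Nothing in the labels says that the libraries of a group came from separate cultures, so p-values measure only the spread between these libraries.

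Cholesterol is built in the cytosol and endoplasmic reticulum (ER) from acetyl-CoA, through mevalonate, isoprenoid diphosphates, squalene and lanosterol. Most of the enzymes are targets of SREBP2, a membrane-bound transcription factor. Scap carries it to the Golgi for cleavage when sterols are scarce, and the Insig proteins hold the complex in the ER when sterols are plentiful. Insig1 is itself an SREBP target, which makes its mRNA a common readout of the pathway. Oxysterols act through LXR receptors to raise Abca1, which exports cholesterol. Myc binds the sequence CACGTG, and the factor NF-Y, which often acts beside SREBP2, binds CCAAT.

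The depth recovered from the values was 1.76 to 15.71 M (mega) reads, an 8.9-fold range. MycER replicate 1 was the shallowest, followed by the MycER OHT Y27 libraries at 3.63 and 2.62 M. The 8 OHT libraries averaged 9.7 M reads and the 8 others 10.2 M. Values stopped rising at a ceiling of reads per base of gene, at most 1.87 in any library, so that the RPKM of abundant genes fell as depth rose. Of the 26 tested members, 7 exceeded 1 read per base in some library, which is 26.9% against 4.14% of all 13028 genes tested. Fdps, which makes farnesyl diphosphate, had 283 RPKM from 611 reads in MycER replicate 1, and 85.3 RPKM from 1639 reads in MycER OHT replicate 1. More reads stood behind the lower value, but the deeper library would have more reads in any case. These libraries also differ in OHT, so the pair does not by itself show the ceiling. Because of the fall with depth, changes are given as deposited and, for some, also after quantile normalization. That scaling keeps only the rank of a gene within its library. A change given without the second value may differ between scalings as well. A call is said to hold in 3 scalings where it passed in the same direction as deposited, after quantile normalization and after cyclic loess.

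**Figure D1:**
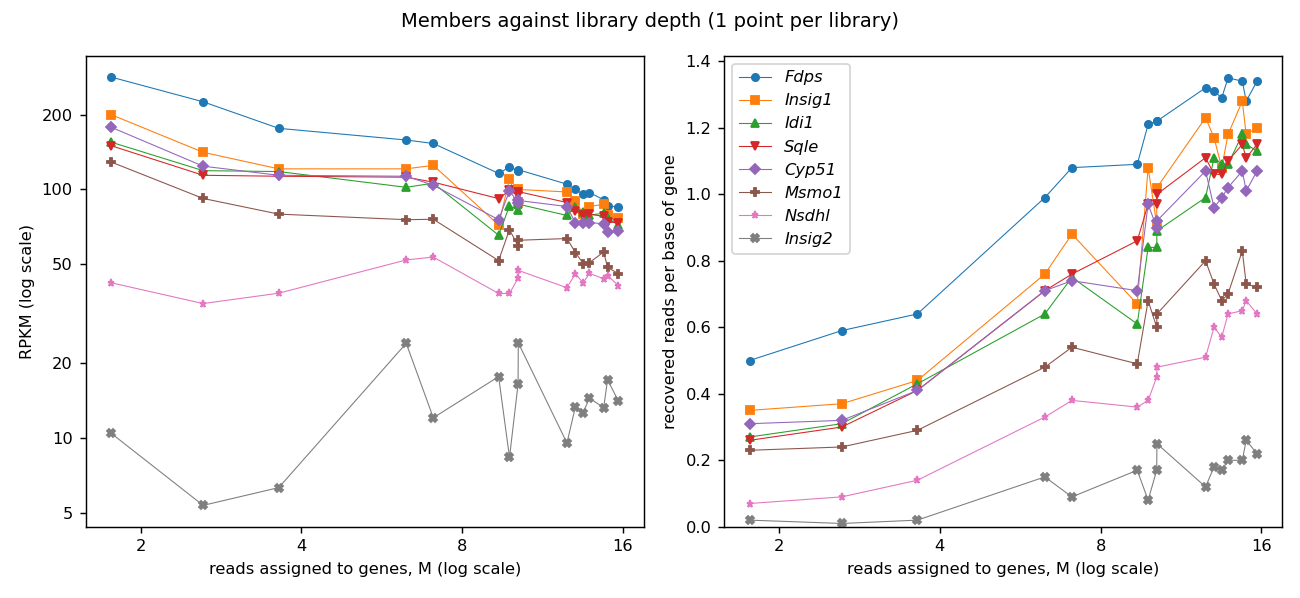
Members against depth, with 1 point per library. The left panel plots RPKM and the right panel recovered reads per base of gene against reads assigned to genes in M, with log axes for RPKM and depth. Fdps lies at 283 RPKM in the library of 1.76 M reads and at 85.3 RPKM in that of 15.71 M, while its reads per base flatten near 1.3, and Insig2, under 0.3 reads per base throughout, shows no such slope.

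Labels were checked before any comparison. In the groups without OHT, Bex1 was at 16 and 16.1 RPKM in YAP2S, against 0 and 0.49 RPKM in MycER. In the OHT groups it was the other way round, with 1.01 and 0.47 RPKM in YAP2S OHT, against 19.0 and 19.8 RPKM in MycER OHT. A set of 250 genes differed between YAP2S and MycER by more than 1 on the log2 scale both with Y27 and in its absence, all without OHT. Of these, 95.2% went the other way in YAP2S OHT against MycER OHT, and 86.0% in YAP2S OHT Y27 against MycER OHT Y27. Ctgf, a YAP target, was at 11.3 and 14.0 RPKM in MycER Y27 against 171 and 139 RPKM in MycER. In the libraries labelled MycER OHT Y27 it was at 145 and 155 RPKM, against 67.1 and 60.8 RPKM in MycER OHT. Ctgf was at 94.8 and 93.1 RPKM in YAP2S, below both MycER libraries. The population and Y27 labels of the OHT libraries are thus at odds with those of the other libraries in these genes, and no library was moved. Bex1 and the 250 genes do not show which set of libraries carries wrong population labels. The labels without OHT were taken as given, which is an assumption. Yap1 itself averaged 23.8 ± 2.16 RPKM in YAP2S and 21.6 ± 6.41 RPKM in MycER (SD, n = 2 each), which overlap. Whether reads of the transgene fall on this row is not given in the sources used here. The group means compared without OHT do not include the OHT libraries, but the OHT libraries enter the shared estimate of spread. In a fit of the 8 libraries without OHT alone, chosen after seeing the data, the calls for Mvk in MycER Y27 against MycER, for Idi1 and Sc5d in YAP2S against MycER and for Acly in YAP2S Y27 against MycER Y27 were lost. The size of the OHT change averaged over all groups does not depend on the population or Y27 label. Of 9 fibroblast markers, 7 reached 1 RPKM, all but Thy1 and Pdgfra, and their summed level ran between 467 and 1170 RPKM in OHT libraries and between 486 and 1570 RPKM in the others. Macrophage markers summed to between 15.8 and 52.1 RPKM in OHT libraries and between 14.2 and 51.8 RPKM in the others, with Emr1, Ptprc and Fcgr1 under 1 RPKM. The hepatocyte marker Alb was at 0 in every library.

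Each pathway enzyme tested was expressed. Hmgcs1, whose row never exceeded 0.0226 RPKM, was not among those tested. Whether that low value reflects the cells or how reads were counted on the row was not tested. Median RPKM over the 16 libraries, a scale per length, was highest for Fdps at 118, for Insig1 at 93.8, for the squalene epoxidase Sqle at 93.6, for the lanosterol demethylase Cyp51 at 87.0 and for the isopentenyl diphosphate isomerase Idi1 at 84.1. All 5 exceeded 1 read per base in some library. Of the members tested, the lowest medians were those of Abca1 at 3.04, of Insig2 at 13.3 and of Dhcr7, the reductase of a closing step, at 14.3. Lss, which closes squalene epoxide into lanosterol, varied least, with 52.1 to 60.8 RPKM over all libraries. Abca1 varied most, with a highest library 8.99 times its lowest, followed by Dhcr7 at 4.80 times and Insig2 at 4.49 times.

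The first comparison asks what OHT did whichever population received it, over 8 libraries with OHT against 8 without. Of the 26 members tested, 0 rose and 7 fell. They were, in pathway order, the phosphomevalonate kinase Pmvk, the mevalonate diphosphate decarboxylase Mvd, the sterol reductase Tm7sf2, Nsdhl and Hsd17b7 of C4 demethylation, Insig2 and Abca1. Members that fell were 26.9% of those tested, against 19.3% of all 13028 genes, and members that rose were 0%, against 13.0% of all genes. The median log2 change was -0.08 over the members and -0.04 over all genes. All 7 calls held in 3 scalings, as did lower calls for 17.1% of all genes. After quantile normalization 10 members fell and 0 rose, against 20.6% and 17.7% of all genes. In 0 members were all 8 OHT libraries below or above the 8 others, which 0.553% and 2.09% of all genes were. The test throughout was limma's moderated test on log2(RPKM + 1), with Benjamini-Hochberg adjustment over all genes. Its SE and p-value rest on the spread between libraries within groups. For OHT averaged, they do not measure how the change differed from group to group.

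The changes fell on different steps, and the abundant SREBP2 targets were not among those called as deposited. To show what the promoters of the members with the firmest calls share, the window of 250 bases before to 50 after the start site is printed for Abca1, Insig2, Hsd17b7, Tm7sf2 and Nsdhl, with Insig1 for comparison. Sequences are from RefSeq on GRCm38.p6, 5′ to 3′ on the gene's strand, with matches to CACGTG or to CCAAT on either strand in capitals. The windows are chr4:53159846-53160145 for Abca1, chr1:121332540-121332839 for Insig2 (1 of several annotated starts), chr1:169969156-169969455 for Hsd17b7 and chr19:6067801-6068100 for Tm7sf2, all on the minus strand. Those of Nsdhl, chrX:72918271-72918570, and Insig1, chr5:28071162-28071461, are on the plus strand.
Hsd17b7: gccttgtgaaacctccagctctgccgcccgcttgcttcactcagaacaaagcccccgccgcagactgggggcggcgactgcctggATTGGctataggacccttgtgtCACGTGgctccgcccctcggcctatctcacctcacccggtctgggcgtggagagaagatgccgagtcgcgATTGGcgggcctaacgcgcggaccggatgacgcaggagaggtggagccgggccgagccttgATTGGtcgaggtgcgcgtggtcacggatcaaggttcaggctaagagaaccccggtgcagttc
Abca1: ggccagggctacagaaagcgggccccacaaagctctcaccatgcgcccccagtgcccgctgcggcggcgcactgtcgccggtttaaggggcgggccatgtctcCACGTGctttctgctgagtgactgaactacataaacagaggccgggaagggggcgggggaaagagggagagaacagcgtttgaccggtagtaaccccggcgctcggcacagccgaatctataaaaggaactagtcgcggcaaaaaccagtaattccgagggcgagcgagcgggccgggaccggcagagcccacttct
Insig1: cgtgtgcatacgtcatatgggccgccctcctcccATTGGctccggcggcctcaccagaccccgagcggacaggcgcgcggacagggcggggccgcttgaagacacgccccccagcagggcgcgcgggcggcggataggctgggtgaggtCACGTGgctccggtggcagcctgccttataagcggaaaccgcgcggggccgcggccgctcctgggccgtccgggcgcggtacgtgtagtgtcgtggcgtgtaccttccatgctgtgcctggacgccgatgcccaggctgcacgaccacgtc
Insig2: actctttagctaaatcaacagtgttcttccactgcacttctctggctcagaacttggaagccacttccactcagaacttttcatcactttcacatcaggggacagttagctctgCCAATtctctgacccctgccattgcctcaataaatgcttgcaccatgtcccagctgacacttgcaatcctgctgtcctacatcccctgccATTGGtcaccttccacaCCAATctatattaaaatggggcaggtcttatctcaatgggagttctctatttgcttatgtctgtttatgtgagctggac
Nsdhl: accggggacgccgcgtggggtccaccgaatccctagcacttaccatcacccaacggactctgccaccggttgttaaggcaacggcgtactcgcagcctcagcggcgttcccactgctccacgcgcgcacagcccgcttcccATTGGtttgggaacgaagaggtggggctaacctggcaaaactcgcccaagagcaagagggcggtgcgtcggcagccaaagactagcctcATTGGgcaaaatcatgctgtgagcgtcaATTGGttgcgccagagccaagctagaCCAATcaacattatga
Tm7sf2: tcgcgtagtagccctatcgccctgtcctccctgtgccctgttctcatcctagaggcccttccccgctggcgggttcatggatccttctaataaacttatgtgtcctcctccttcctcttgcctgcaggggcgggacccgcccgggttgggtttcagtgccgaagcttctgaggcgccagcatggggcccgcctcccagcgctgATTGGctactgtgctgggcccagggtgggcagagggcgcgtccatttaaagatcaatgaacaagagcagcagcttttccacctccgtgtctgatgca
Hsd17b7, Abca1 and Insig1 have a CACGTG, whose first base lies at -143, -147 and -101 from the start site. Insig2, Nsdhl and Tm7sf2 have none in these windows, and Abca1 has no CCAAT.

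Of the members, 24 genes matched the RefSeq promoter table, with 30 windows. Sqle, Fdft1, Fdps and Stard4 had no entry there, so their promoters were not searched. CACGTG was present in 6 genes (Hsd17b7, Abca1, Insig1, Dhcr7, Sc5d and Scap), in 7 of the 30 windows, and in 7.15% of all 32851 windows. The matched windows of Scap overlap and hold the same site, which is thus counted more than once. CCAAT was present in 20 genes and 20 windows, against 37.4% of all windows. The core letters of a sterol regulatory element, TCACNCCAC, matched in Hmgcs1 alone, at -137, and in 1.24% of all windows. CATTCC, the TEAD motif, matched in Npc1l1 alone, against 14.7% of all windows. Each motif was searched on both strands, matches of different motifs may share bases, and a match or its lack says nothing of binding.

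Hsd17b7, the ketoreductase that completes removal of the sterol C4 methyl groups, had 11, 20.1 and 24.6 RPKM as lowest, median and highest of the 8 OHT libraries, against 21.4, 27.8 and 28.6 RPKM in the 8 others. The OHT group mean was lower in 15 of the 16 pairs of an OHT group with a group without, although the YAP2S OHT and MycER OHT libraries reached into the range of those without OHT. The log2 change was -0.47 ± 0.07 (SE), with an adjusted p of 0.000278 by limma. Nsdhl, the dehydrogenase of the same demethylation, had 34.8, 39.3 and 44.0 RPKM with OHT, against 42.2, 45.9 and 53.5 RPKM without. It was lower in all 16 pairs of group means, although single libraries overlapped, with a log2 change of -0.24 ± 0.06 (SE) and a limma adjusted p of 0.00876. Msmo1, the oxidase that opens this demethylation, did not pass (-0.08 ± 0.10, adjusted p 0.57 by limma).

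Tm7sf2, a sterol C14 reductase, had 12.2, 20.2 and 27.9 RPKM with OHT, against 22.2, 23.9 and 25.5 RPKM without. The groups overlapped at the top, since both YAP2S OHT libraries, at 27.3 and 27.9 RPKM, lay above every library without OHT. Its log2 change was -0.27 ± 0.05 (SE) with a limma adjusted p of 0.0028. In GENCODE M21, 12.1% of the exonic bases of Tm7sf2 are shared with Vps51 on the same strand, and Vps51 changed by -0.01 (limma adjusted p 0.94).

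Higher up the pathway, Mvd, which yields isopentenyl diphosphate, had 43.7, 61.9 and 69.2 RPKM with OHT, against 61.9, 68.3 and 82.4 RPKM without. Pmvk, the kinase before it, had 31, 37.7 and 39.8 RPKM with OHT, against 37.4, 40.9 and 48.5 RPKM without. Their log2 changes were -0.20 ± 0.06 and -0.16 ± 0.06 (SE), with limma adjusted p of 0.0285 and 0.0395, and both overlapped between OHT and the rest. These calls were the least firm of the 7. Mvd lost its call in 7 of the 23 alternatives, and Pmvk in 12, each time on leaving out 1 library. The kinase before both, Mvk, changed by 0.03 ± 0.04.

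Insig2, the retention protein that SREBP2 does not drive, differed with Y27 as well as with OHT, but by label not always in the same direction. It had 17.7 and 16.5 RPKM in YAP2S OHT Y27, 9.58 and 8.39 in YAP2S OHT, 6.34 and 5.38 in MycER OHT Y27 and 14.1 and 12.7 in MycER OHT. Without OHT it had 14.5 and 17.2 RPKM in YAP2S Y27, 13.3 and 13.4 in YAP2S, 24.1 and 24.2 in MycER Y27 and 10.5 and 12.1 in MycER. MycER Y27 stood apart at the top and MycER OHT Y27 at the bottom, while several of the groups between them overlapped, such as YAP2S with MycER OHT and YAP2S Y27 with YAP2S OHT Y27. Averaged over groups, OHT changed it by -0.52 ± 0.06 (SE), with a limma adjusted p of 0.000127, and the OHT mean was lower in 11 of 16 group pairs. By label, the mean fell from 24.1 RPKM in MycER Y27 to 5.86 in MycER OHT Y27, and from 13.3 in YAP2S to 8.99 in YAP2S OHT. It rose from 11.3 RPKM in MycER to 13.4 in MycER OHT, and from 15.9 in YAP2S Y27 to 17.1 in YAP2S OHT Y27. The SE does not measure this difference between matched groups.

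Abca1, the exporter, had 4.78 and 3.11 RPKM in YAP2S OHT Y27, 2.24 and 2.46 in YAP2S OHT, 1.4 and 0.855 in MycER OHT Y27 and 1.80 and 1.67 in MycER OHT. Without OHT it had 2.83 and 3.14 RPKM in YAP2S Y27, 2.97 and 3.73 in YAP2S, 7.69 and 6.27 in MycER Y27 and 3.59 and 3.86 in MycER. Of the OHT libraries, only those of YAP2S OHT Y27 lay within the range of the rest. The log2 change was -0.70 ± 0.10 (SE) with a limma adjusted p of 0.000265, on a scale that understates changes at so low a level.

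**Figure D2:**
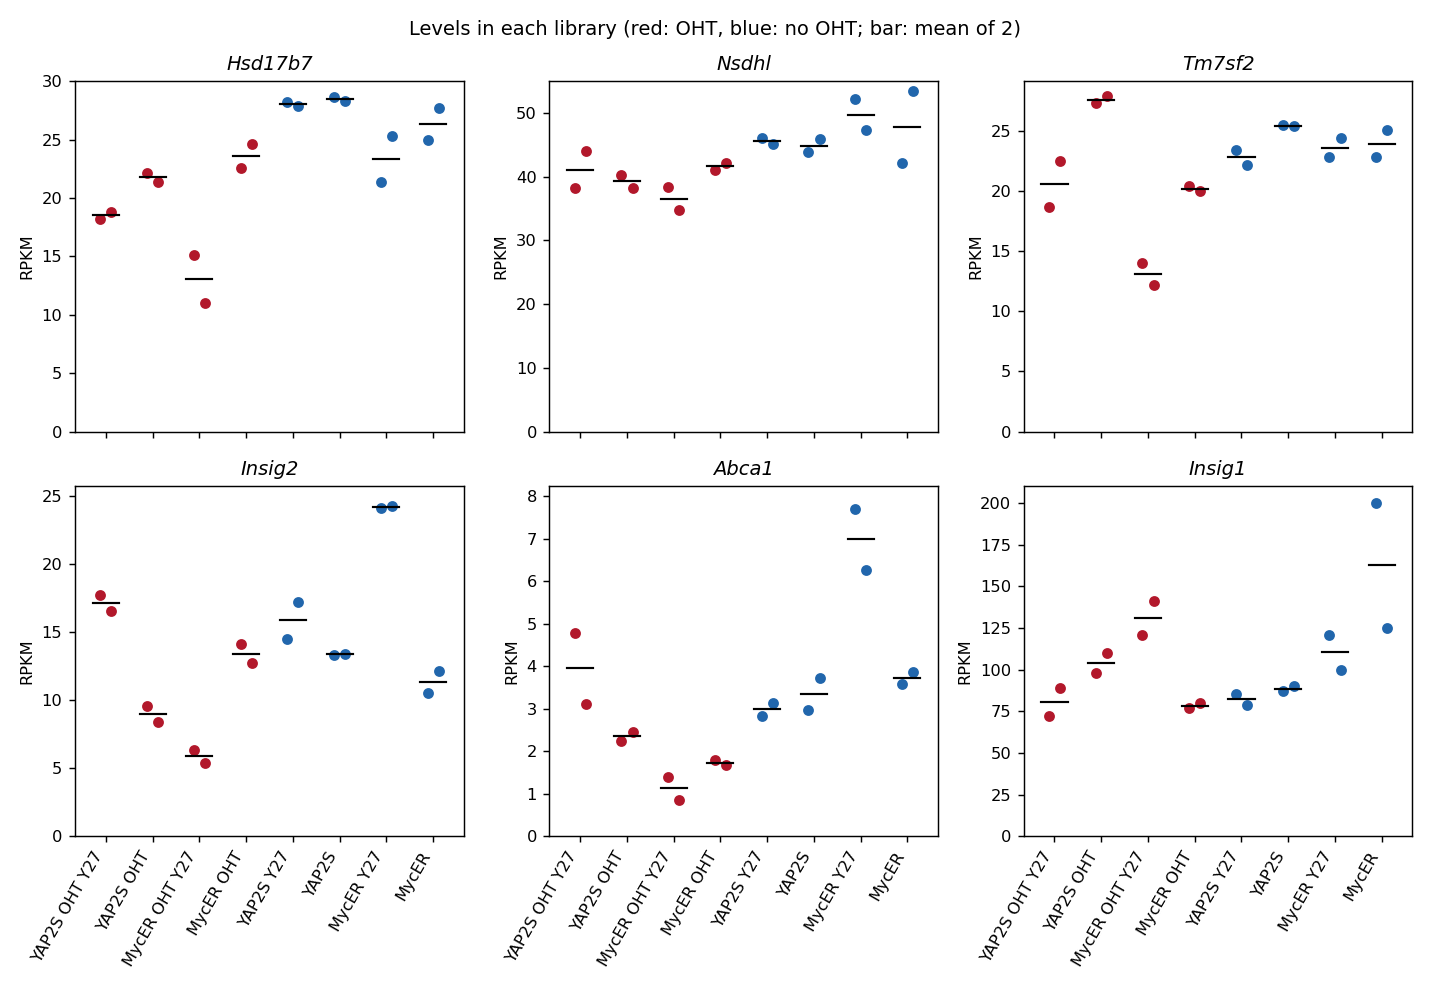
RPKM of 6 members in each library, by group, with OHT groups in red at the left, groups without OHT in blue at the right, and a bar at the mean of 2. Hsd17b7 and Nsdhl sit lower in the red groups, Insig2 and Abca1 have their highest group in MycER Y27, and Insig1 is highest in the shallow MycER library at 200 RPKM.

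The regulators and abundant targets gave smaller values. Idi1, Fdps, Sqle, Cyp51, Sc5d and Insig1 exceeded 1 read per base in some library, and high values were compressed. Whether their smaller changes reflect smaller responses was not tested. Srebf2, which encodes SREBP2, changed by 0.09 ± 0.09 and Scap by 0.07 ± 0.05, and neither passed. Srebf2 had 74.0 RPKM in YAP2S OHT Y27 replicate 1 and 38.7 to 46.8 RPKM in the 15 other libraries. Insig1 changed by -0.14 ± 0.10 as deposited, and by -0.16 with a limma adjusted p of 0.00354 after quantile normalization. Idi1 at -0.16 and the desaturase Sc5d at -0.15 likewise passed only after a rescaling, here with limma adjusted p of 0.00859 and 0.00601. Fdps, the squalene synthase Fdft1, Sqle, Lss and Cyp51 lay between -0.09 and -0.01 as deposited and passed in no scaling. Stard4, a cytosolic cholesterol carrier, changed by 0.13 ± 0.06 and Dhcr7 by 0.26 ± 0.16, both short of the threshold. Abca1, Insig2, Hsd17b7, Tm7sf2 and Nsdhl kept their call in each of the 23 alternatives, leaving out any library included. No alternative left out a whole group. The lowest group mean of each of these members was that of MycER OHT Y27, at 3.63 and 2.62 M reads. By label, Hsd17b7 and Nsdhl fell with OHT in every pair of groups matched for population and Y27, while Abca1, Insig2 and Tm7sf2 did not. How far the averaged falls rest on MycER OHT Y27 was not tested.

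**Figure D3:**
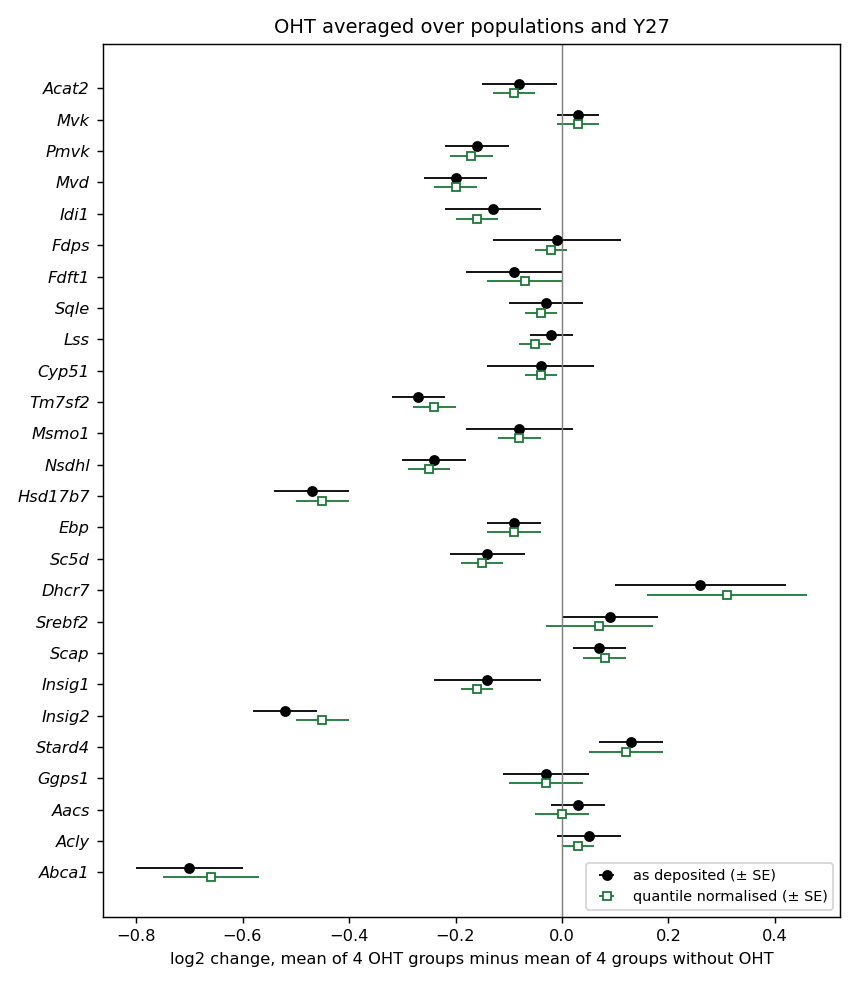
Log2 change of the 26 members tested for OHT averaged over populations and Y27, in pathway order from Acat2, with regulators and Abca1 below. Points are fitted changes with SE bars, filled as deposited and open after quantile normalization. Abca1 at -0.70, Insig2 at -0.52 and Hsd17b7 at -0.47 lie farthest below 0.

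The second comparison asks how ROCK inhibition changed these genes in MycER cells without OHT, whose labels were taken as given. Of 26 members, Insig2 and Abca1 rose and Mvk fell in MycER Y27 against MycER. The members higher were 7.69% and those lower 3.85%, against 13.4% and 4.47% of all genes. Insig2 was at 24.1 and 24.2 RPKM in MycER Y27, against 10.5 and 12.1 RPKM in MycER, without overlap. Its log2 change was 1.03 ± 0.13 (SE) as deposited (limma adjusted p 0.000248) and 0.80 ± 0.11 after quantile normalization, and leaving out any single library did not end the call. Abca1 changed by 0.75 ± 0.19 (SE, limma adjusted p 0.0194), and by 0.53 after quantile normalization, which did not pass (limma adjusted p 0.0758). The Abca1 call was also lost without MycER Y27 replicate 1 and without MycER replicate 1. Mvk, the mevalonate kinase, had 36.7 and 39.3 RPKM in MycER Y27, against 46.7 and 45.6 RPKM in MycER. It changed by -0.27 ± 0.08 (SE, limma adjusted p 0.0381) and was lost in 7 of 14 alternatives. In 3 scalings 1 member held as higher and 1 as lower, Insig2 and Mvk, against 8.4% and 4.18% of all genes. The number of members called was 1 without MycER Y27 replicate 1 or MycER replicate 1, and 12 without MycER replicate 2, which leaves the shallowest library alone in its group.

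Of 20 genes tested for sterol transport and ER control outside the list, 4 rose and 0 fell in the same comparison, against 13.4% and 4.47% of all genes. Their median change was 0.14, against 0.13 over all genes. After quantile normalization 3 were higher and 1 lower, and after cyclic loess 3 were higher and 2 lower. Npc1, which lets cholesterol out of lysosomes, rose by 0.95 (limma adjusted p 0.00264), Stard3, a late endosomal sterol carrier, by 0.93 (0.00525) and Nr1h2, an LXR receptor, by 0.54 (0.026), all held in 3 scalings. Of 15 fatty acid genes driven by SREBPs and 16 of the prenyl and dolichol branch, 0 passed by limma as deposited, and 2 and 1 passed after quantile normalization.

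In YAP2S cells, Y27 changed 0 of 26 members by limma, against 0.407% of all genes higher and 0.261% lower. The count was also 0 by voom, and 0 at an unadjusted p under 0.05, which 8.36% of all genes reached. Insig2 had 14.5 and 17.2 RPKM in YAP2S Y27, against 13.3 and 13.4 RPKM in YAP2S, a change of 0.23 ± 0.13. The difference between the Y27 responses, YAP2S minus MycER, was called for 0 members by limma and 0 by voom, against 0.361% of all genes higher and 0.207% lower. An unadjusted p under 0.05 was reached by 12.4% of all genes and by 2 members, Insig2 at -0.80 ± 0.18 (limma adjusted p 0.0814) and Abca1 at -0.87 ± 0.27 (limma adjusted p 0.207). The smaller response of Insig2 in YAP2S cells was therefore not shown to differ from that in MycER cells. Without MycER replicate 2 the count was 7.

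Under Y27, YAP2S cells were set against MycER cells at closer depth, 13.86 and 14.99 M reads in YAP2S Y27 against 6.29 and 10.2 M in MycER Y27. There 0 members were higher and 3 lower, or 11.5% lower, against 10.6% of all genes higher and 5.43% lower. Abca1 was at 2.83 and 3.14 RPKM in YAP2S Y27, against 7.69 and 6.27 RPKM in MycER Y27, a log2 change of -1.0 ± 0.19 (SE, limma adjusted p 0.00477). Insig2, at 14.5 and 17.2 RPKM in YAP2S Y27 against 24.1 and 24.2 RPKM in MycER Y27, changed by -0.58 ± 0.13 (SE, limma adjusted p 0.0102). These 2 lower calls held in 3 scalings, as did those of 4.51% of all genes, and did not overlap between the groups. Acly, which makes cytosolic acetyl-CoA from citrate, changed by -0.38 ± 0.12 (SE, limma adjusted p 0.048) and by -0.08 after quantile normalization, where it did not pass. Without MycER Y27 replicate 1 the count was 0, and Insig2 also lost its call without YAP2S Y27 replicate 1.

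Without Y27, YAP2S against MycER gave the most calls of the comparisons free of OHT, and most of them followed the scaling. As deposited, 1 member was higher (3.85%) and 10 were lower (38.5%), against 24.8% and 8.43% of all genes, whose median was 0.24. After quantile normalization 0 were higher and 3 lower, against 7.56% and 8.23% of all genes. The depth was 14.74 and 13.05 M reads in YAP2S, against 1.76 and 7.07 M in MycER. Fdps stood at 95.5 ± 6.45 RPKM in YAP2S and 218 ± 92.1 RPKM in MycER (SD, n = 2 each). Its change of -1.12 ± 0.24 (SE, limma adjusted p 0.00871) became -0.01 after quantile normalization. Sqle was at 78.0 and 81.6 RPKM in YAP2S, against 150 and 107 RPKM in MycER. Insig1 was at 87.1 and 89.9 RPKM in YAP2S, against 200 and 125 RPKM in MycER. Both thus took their highest value in the shallowest library. Idi1, Sqle, Sc5d and Insig1 were lower as deposited, by -0.62, -0.66, -0.48 and -0.83, and changed sign after quantile normalization, to 0.13, 0.06, 0.12 and 0.07, none of which passed.

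The calls for 3 members, Acat2, Fdft1 and Msmo1, held in 3 scalings, as did lower calls for 3.19% of all genes. Acat2, the thiolase that joins acetyl-CoA units, was at 47.1 and 47.6 RPKM in YAP2S, against 83.6 and 59.9 RPKM in MycER. Fdft1, squalene synthase, was at 33.3 and 34.9 RPKM in YAP2S, against 78.8 and 48.2 RPKM in MycER. Msmo1 was at 56.1 and 55.8 RPKM in YAP2S, against 129 and 75.9 RPKM in MycER. After quantile normalization the log2 changes were -0.30 ± 0.07 for Acat2, -0.69 ± 0.13 for Fdft1 and -0.32 ± 0.08 for Msmo1 (SE), and as deposited -0.57, -0.84 and -0.81 (limma adjusted p 0.014, 0.00933 and 0.0116). In each case the libraries did not overlap, yet the calls were lost without YAP2S replicate 1, YAP2S replicate 2 or MycER replicate 1. The number of members called was 0, 1 and 1 without these libraries in turn. In GENCODE M21, 18.3% of the exonic bases of Fdft1 lie opposite Ctsb, which changed by -0.84 as well (limma adjusted p 0.00605). Counting by strand was not stated, so reads on these shared bases cannot be told apart.

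Dhcr7 was the member higher in YAP2S. It was at 17.5 and 19.8 RPKM in YAP2S, against 6.04 and 10.4 RPKM in MycER, a log2 change of 1.13 ± 0.32 (SE, limma adjusted p 0.0196). After quantile normalization the change was 0.74 ± 0.29 and did not pass (limma adjusted p 0.103). Cyp51 was at 72.8 and 73.4 RPKM in YAP2S, against 178 and 104 RPKM in MycER, and Acly at 66.5 and 70.1 RPKM in YAP2S, against 116 and 93.5 RPKM in MycER. Their log2 changes were -0.89 and -0.60 as deposited, and -0.13 and -0.05 after quantile normalization, where neither passed.

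**Figure D4:**
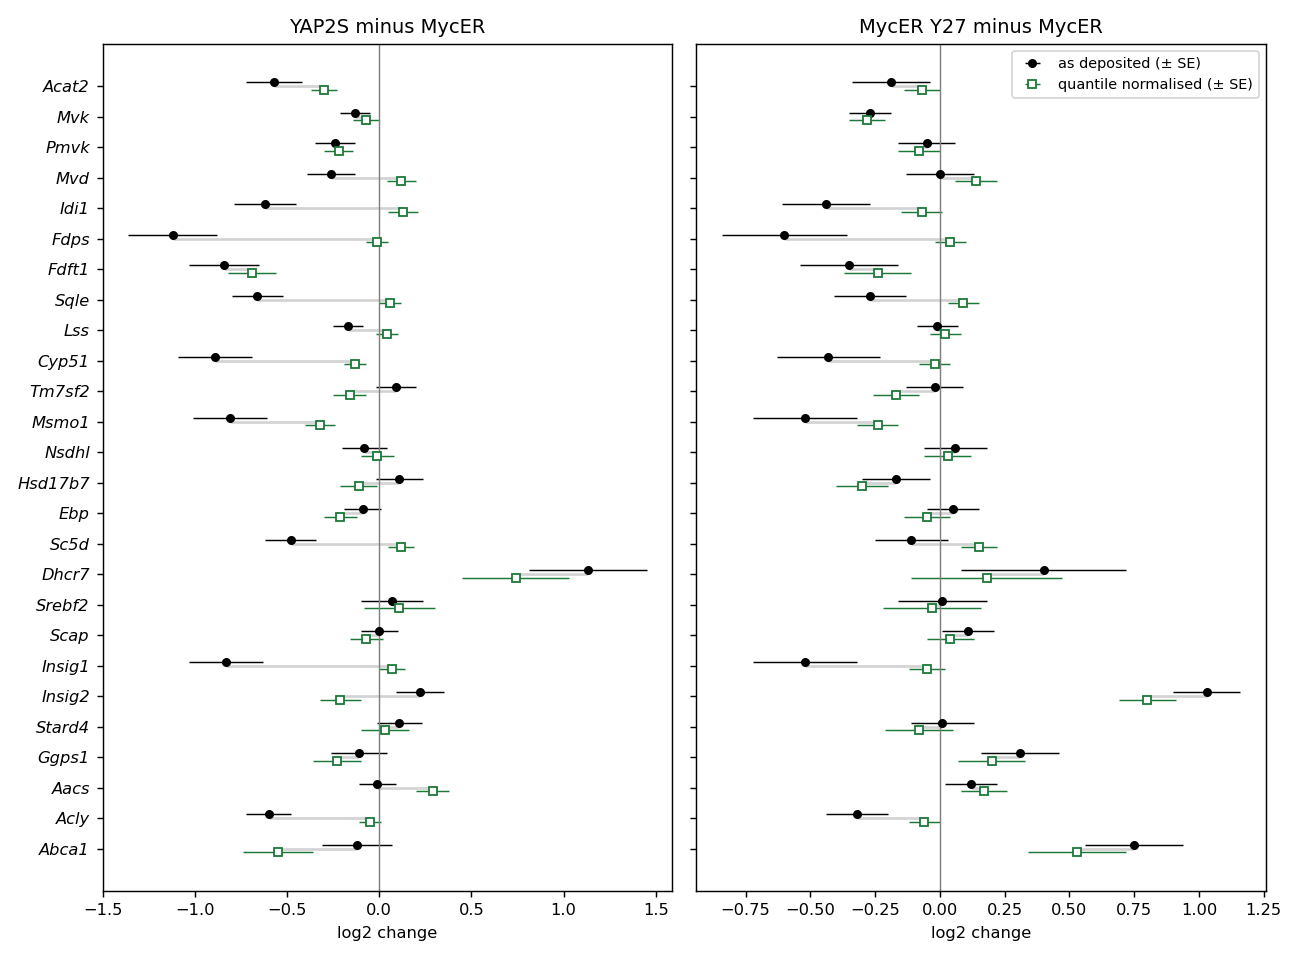
Log2 changes of the 26 members in YAP2S minus MycER (left) and in MycER Y27 minus MycER (right), with SE bars. Filled points are as deposited and open points after quantile normalization, and a grey line joins the pair. On the left Fdps is at -1.12 and at -0.01, and on the right Insig2 stays apart from the rest at 1.03 and 0.80.

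Comparisons that rest on the single OHT groups are given by label only, with the doubt above. In MycER OHT against MycER, 2 members were higher and 13 lower, against 31.6% and 13.3% of all genes, at 15.71 and 13.49 M reads against 1.76 and 7.07 M. Dhcr7 at 1.4 and Stard4 at 0.44 were the members higher. Both held in 3 scalings, as did Acat2, Pmvk, Fdft1, Msmo1 and Abca1 among those lower, against 16.1% and 8.9% of all genes. Leaving out a single library could end the calls for Dhcr7, Stard4, Acat2 and Pmvk, but not those for Fdft1, Msmo1 and Abca1. In MycER OHT Y27 against MycER Y27, 1 was higher and 7 lower, against 16.6% and 33.5% of all genes, with Insig2 at -1.88 ± 0.13 and Abca1 at -1.91 ± 0.19 (SE). In YAP2S OHT against YAP2S, 0 were higher and Insig2 was lower by -0.52, against 5.76% and 8.01% of all genes, and the call was lost without any 1 of the 4 libraries compared. In YAP2S OHT Y27 against YAP2S Y27, 0 were higher and Hsd17b7 was lower by -0.57, against 5.0% and 10.0% of all genes. That call was lost without YAP2S OHT Y27 replicate 1, YAP2S Y27 replicate 1 or YAP2S Y27 replicate 2.

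Y27 in the OHT groups, again by label, took Insig2 in opposite directions. In YAP2S OHT Y27 against YAP2S OHT it was higher by 0.86 ± 0.13 (limma adjusted p 0.00123), and Tm7sf2 was lower by -0.41, the 2 members called, against 4.97% and 6.4% of all genes. The call for Tm7sf2 was lost without YAP2S OHT Y27 replicate 1, YAP2S OHT replicate 1 or YAP2S OHT replicate 2. In MycER OHT Y27 against MycER OHT, Insig2 was lower by -1.08 ± 0.13 (limma adjusted p 0.000178). Here 9 members were higher and 6 lower, against 10.5% and 36.4% of all genes. In 3 scalings 2 held as higher, Fdft1 and Msmo1, and 3 as lower, Mvd, Hsd17b7 and Insig2, against 5.79% and 13.2% of all genes. By group mean, Insig2 was highest where Ctgf was lowest, in MycER Y27 and YAP2S OHT Y27, and lowest in MycER OHT Y27, where Ctgf was near its top.

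**Figure D5:**
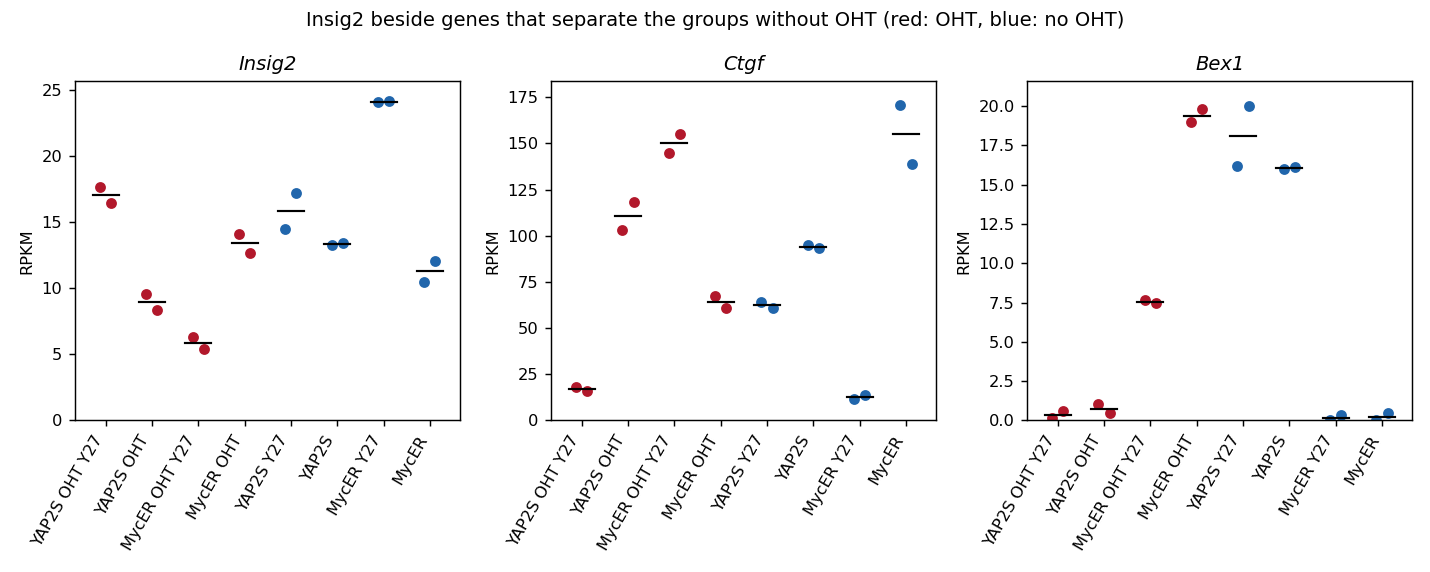
RPKM of Insig2, Ctgf and Bex1 in each library, with OHT groups in red at the left, groups without OHT in blue at the right, and a bar at the mean of 2. Ctgf lies between 11.3 and 17.8 RPKM in MycER Y27 and YAP2S OHT Y27, where Insig2 is highest, and Bex1 is at 1.01 RPKM or less in YAP2S OHT Y27, YAP2S OHT, MycER Y27 and MycER.

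Between populations with OHT, YAP2S OHT against MycER OHT had Mvk and Tm7sf2 higher, by 0.34 and 0.43, and Insig2 and Stard4 lower, by -0.53 and -0.50, against 4.34% and 6.72% of all genes. Each of these calls was lost without any 1 of the 4 libraries compared. In YAP2S OHT Y27 against MycER OHT Y27, 9 members were higher and 6 lower, against 32.8% and 14.2% of all genes, and Mvd, Tm7sf2, Scap, Insig2, Aacs, Abca1 and Msmo1 held in 3 scalings, Msmo1 as the member lower, against 20.2% and 11.9% of all genes. Aacs, which activates acetoacetate for sterol synthesis, was higher by 0.31 and Scap by 0.60. Whether Y27 changed the response to OHT was called for 0 members in YAP2S cells by limma and by voom, against 0.0691% of all genes higher and 0.376% lower, and 2 members, Insig2 and Abca1, were among the 7.72% of all genes with an unadjusted p under 0.05. The count was 4 without YAP2S OHT Y27 replicate 2. In MycER cells the same test was passed by 15, 9 higher and 6 lower, against 12.3% and 39.1% of all genes, and in 3 scalings by 3, Fdft1 and Msmo1 higher and Insig2 lower, against 8.18% and 17.2%.

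For OHT averaged over groups, the counts of the further lists stand against 13.0% of all genes higher and 19.3% lower. Of 15 fatty acid genes tested, 2 rose and 2 fell. Acss2, which activates acetate, fell by 0.38 on the log2 scale (limma adjusted p 0.00101), and Fasn, fatty acid synthase, rose by 0.26 (0.00872), a call that did not hold in 3 scalings. Of 16 genes of the prenyl and dolichol branch, 4 rose and 3 fell. Pdss1, which makes the ubiquinone side chain, rose by 0.75 (2.38e-05), and Rabggta, a Rab prenyltransferase subunit, by 0.64 (8.24e-05), while Dolpp1, a dolichyl pyrophosphate phosphatase, fell by 0.52 (0.00181). Of 20 genes of sterol transport and ER control, 3 rose and 2 fell, with Erlin1, an ER membrane protein that restrains SREBPs, higher by 0.52 (7.75e-05) and Soat1 by 0.39 (4.74e-05). The p-values in parentheses are adjusted by limma over all genes. Ggps1, the member that makes geranylgeranyl diphosphate for this branch, changed by -0.03 ± 0.08, and 5.44% of its exonic bases lie opposite Arid4b, which changed by -0.20.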

How the data were processed

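Total RNA of 16 fibroblast libraries was sequenced after a TruSeq kit run without its poly(T) step. The submitters' processing notes name TopHat2 2.0.8, SAMtools, featureCounts 1.4.5-p1 and mm9; annotation and strand setting are not given in the sources used here. The authors deposited RPKM values (no source names the unit, which was inferred), and they are whole reads within 0.01 for 100.0% of the 19002 genes above 0. The recovered depth and reads per base rest on these steps and on lengths worked out from them. Exon overlaps are from GENCODE M21. High values were compressed, most in deep libraries. They behave as if reads at 1 position were counted once, which no source states.

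Values were set to log2(RPKM + 1), with genes at 1 RPKM or more in at least 2 libraries kept (13028). All libraries were fitted in limma 3.58.1 (R 4.3.3) estimating 1 mean for every group and letting the prior variance follow the mean level; 8 residual degrees of freedom were left and tests were two-sided. Adjusted p is Benjamini-Hochberg over all genes within each of 16 comparisons, with a threshold of 0.05; the comparisons share groups and hence their errors. Alternatives were a pseudocount of 0.1, no filter, a filter at 5 RPKM, quantile normalization, cyclic loess, voom on the recovered reads, a replicate term, fits restricted to the compared libraries, and omission of each library. Fits of the 8 libraries without OHT alone were chosen after seeing the data. Members and lists were chosen with earlier results of these data known. Values by library were given for up to 6 members with the smallest adjusted p in OHT averaged and in each comparison without OHT, and up to 3 genes were named from each further list; library values of Pmvk, Acat2, Msmo1 and Dhcr7 were added after their results were seen. The fit was tried on simulated data for MycER OHT against MycER only. No ceiling of reads per base was simulated, so the trial does not show how calls fare under it. No coordinates of mm9 were used; promoters are from RefSeq on GRCm38.p6, and genes were matched by symbol. With 2 libraries a group, a member not called was not detected as changed at this depth.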

Additional observations from a re-analysis of the deposited data

Results flagged for a closer look

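The response to OHT differed between MycER cells with and without Y27 for 15 members by limma's interaction test, by label, 9 of 26 higher and 6 lower, against 12.3% and 39.1% of all genes. The interaction is the log2 change of MycER OHT Y27 over MycER Y27 minus that of MycER OHT over MycER. It was positive for Acat2 at 0.67, Idi1 at 1.07, Fdps at 1.73, Fdft1 at 0.99, Sqle at 0.84, Cyp51 at 1.17, Msmo1 at 1.34, Insig1 at 1.25 and Acly at 0.98. It was negative for Tm7sf2 at -0.58, Hsd17b7 at -0.65, Dhcr7 at -1.48, Scap at -0.44, Insig2 at -2.11 and Abca1 at -1.13. The depth was 3.63 and 2.62 M reads in MycER OHT Y27, 6.29 and 10.2 M in MycER Y27, 15.71 and 13.49 M in MycER OHT and 1.76 and 7.07 M in MycER, so the interaction runs along with depth. The calls for Fdft1, Msmo1 and Insig2 held in 3 scalings, at 0.91, 0.72 and -1.34 after quantile normalization.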

How the results depend on the processing

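Of 1371 values of single members under the alternatives, over 100 called results, 1039 kept direction and call, 300 kept only the direction and 32 turned. The turns came with quantile normalization and cyclic loess. In YAP2S against MycER they gave 0.13 and 0.01 for Idi1, 0.06 and 0.01 for Sqle and 0.12 and 0.07 for Sc5d, and quantile normalization gave 0.07 for Insig1, with the same values for quantile normalization of the 8 libraries without OHT alone. In OHT in MycER, quantile normalization gave 0.03 for Idi1, 0.03 for Sqle and 0.16 for Sc5d, and loess 0.10 for Sc5d. In Y27 in MycER OHT, they gave -0.12 and -0.06 for Idi1, -0.15 and -0.16 for Sqle and -0.10 and -0.07 for Insig1, and quantile normalization gave -0.06 for Fdps. In YAP2S OHT Y27 against MycER OHT Y27 they gave 0.05 and 0.03 for Acly, and quantile normalization 0.10 for Fdps. In the interaction of OHT and Y27 in MycER they gave -0.24 and -0.20 for Sqle and 0.04 and 0.01 for Tm7sf2, and quantile normalization -0.05 for Idi1, -0.10 for Fdps and -0.05 for Insig1. The members affected are mainly those near the ceiling, and the cause was not tested.

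Counts of members called moved with these settings. Quantile normalization gave 3 in YAP2S against MycER (3 also with the libraries without OHT alone), 4 in OHT in YAP2S, 6 in OHT in YAP2S Y27 and 9 in Y27 in MycER OHT. Cyclic loess gave 3 in YAP2S against MycER, 4 in OHT in YAP2S Y27, 8 in Y27 in MycER OHT, 9 in YAP2S OHT Y27 against MycER OHT Y27 and 8 in the interaction in MycER. Voom gave 6 in YAP2S Y27 against MycER Y27, 4 in OHT in YAP2S, 3 in OHT in YAP2S Y27 and 4 in Y27 in YAP2S OHT. Only the libraries of the comparison, with fewer degrees of freedom, gave 0 in Y27 in MycER, YAP2S against MycER, OHT in MycER, OHT in YAP2S Y27 and Y27 in YAP2S OHT, 5 in YAP2S Y27 against MycER Y27, 10 in OHT in YAP2S, 11 in YAP2S OHT against MycER OHT and 7 in YAP2S OHT Y27 against MycER OHT Y27.

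Leaving out 1 library gave 5 to 11 members in OHT averaged (11 without MycER replicate 2), 1 to 12 in Y27 in MycER, 0 to 12 in YAP2S against MycER, 0 to 2 in YAP2S Y27 against MycER Y27, 0 to 7 in the Y27 interaction with population, 10 to 15 in OHT in MycER, 6 to 7 in OHT in MycER Y27, 0 to 0 in OHT in YAP2S, 0 to 5 in OHT in YAP2S Y27 (5 without YAP2S OHT Y27 replicate 2), 6 to 12 in Y27 in MycER OHT, 1 to 8 in Y27 in YAP2S OHT (8 without YAP2S OHT Y27 replicate 2), 0 to 0 in YAP2S OHT against MycER OHT, 7 to 14 in YAP2S OHT Y27 against MycER OHT Y27, 11 to 17 in the interaction in MycER and 0 to 4 in that in YAP2S. Where a group keeps 1 library, that library is assumed to vary like the others. The replicate numbers showed no pairing common to all groups (correlations of deviations over 28 group pairs ran between -0.33 and 0.43, median -0.02, with 8 over 0.1). These values do not settle whether some groups were paired. With the replicate block, 7 members were called in OHT averaged, 2 in Y27 in MycER, 11 in YAP2S against MycER and 2 in YAP2S Y27 against MycER Y27.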
